A study of Homo sapiens with 7 samples.

Results

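The NODAL, BMP and ID genes described here are 10 signalling genes: the ligand genes NODAL, GDF3, BMP2 and BMP4, the coreceptor gene TDGF1, the feedback inhibitor genes LEFTY1 and LEFTY2, and the response genes ID1, ID2 and ID3. They were taken by symbol from a table of raw counts of 59251 genes, in which all 10 had a row, and all 10 were among the 26062 genes with enough counts to be tested. The RNA came from H9, an established human embryonic stem cell line grown in RSeT, a medium for the naive state. Cells transfected with guide RNA plasmids under the name DJL1 (3 libraries) were compared with cells named CTRL (4 libraries), 48 h after transfection. Both groups received the histone methylation inhibitor DZNep (10 nM) and the histone deacetylase inhibitor TSA (5 nM), with the survival cocktail CEPT for the initial 16 h, so the controls carry these agents too. The study concerns LINE1 elements, a class of retrotransposon, in the distal junctions next to the ribosomal DNA. The sources used here name neither the protein that the guides direct nor what CTRL cells were given in place of the DJL1 guides. The labels speak of sorting whereas the design text does not, and they do not say whether replicates were separate cultures, so p-values measure the spread between these libraries, which may be technical.

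NODAL and the BMPs are secreted ligands of the TGF-beta family that act through 2 branches of one receptor system. NODAL, with the coreceptor CRIPTO (the product of TDGF1), signals through activin receptors to SMAD2 and SMAD3 and sustains human pluripotent cells, and it switches on its own inhibitors, the LEFTY proteins, and often its own gene. BMP2 and BMP4 signal through other receptors to SMAD1, SMAD5 and SMAD9, whose best known direct targets are the ID genes. ID proteins have a helix-loop-helix domain without a DNA-binding region and hold E proteins, the partners of many lineage factors, away from DNA.

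The gene positions on GRCh38.p14 (RefSeq) are chromosome 10 from 70431936 to 70447951 for NODAL, chromosome 12 from 7689784 to 7695775 for GDF3 and chromosome 3 from 46574535 to 46582457 for TDGF1, which RefSeq now lists as CRIPTO. LEFTY1 (225886282 to 225889146) and LEFTY2 (225936603 to 225941220) are neighbours on chromosome 1, which also holds ID3 (23557926 to 23559501). BMP2 (6767686 to 6780246) and ID1 (31605289 to 31606510) lie on chromosome 20, BMP4 on chromosome 14 (53949736 to 53956891) and ID2 on chromosome 2 (8682056 to 8684461). The table counts reads per gene, so exons, introns and untranslated regions of a gene are not separated in it.

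The ID genes, close relatives of each other, moved in opposite directions, as given below, so the 250 bases before the RefSeq start of each are printed here (GRCh38.p14, on the strand of the gene). Capitals mark letters that match 1 of 4 motifs searched on both strands: the SMAD box CAGAC, the GC-rich SMAD1/5 motif GGCGCC, the FOXH1 core AATCCAC and the CCAAT box CCAAT. None of these overlaps another in letters.
ID1, chr20:31605039-31605288, plus strand: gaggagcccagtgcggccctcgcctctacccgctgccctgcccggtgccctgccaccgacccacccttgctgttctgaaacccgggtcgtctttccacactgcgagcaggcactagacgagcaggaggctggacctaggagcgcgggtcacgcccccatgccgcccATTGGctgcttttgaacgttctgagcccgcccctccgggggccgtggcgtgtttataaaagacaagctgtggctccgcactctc
ID2, chr2:8681806-8682055, plus strand: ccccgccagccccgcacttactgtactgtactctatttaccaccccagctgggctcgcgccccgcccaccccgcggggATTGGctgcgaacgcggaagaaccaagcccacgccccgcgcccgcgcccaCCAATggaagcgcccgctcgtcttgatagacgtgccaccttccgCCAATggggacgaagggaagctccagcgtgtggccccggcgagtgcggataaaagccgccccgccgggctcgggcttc
ID3, chr1:23559502-23559751, minus strand: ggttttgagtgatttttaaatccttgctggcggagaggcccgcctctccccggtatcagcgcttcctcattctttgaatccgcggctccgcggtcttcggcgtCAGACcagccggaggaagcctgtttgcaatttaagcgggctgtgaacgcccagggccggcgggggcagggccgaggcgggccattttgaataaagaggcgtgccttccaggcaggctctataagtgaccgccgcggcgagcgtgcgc

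The window before ID1 holds 1 CCAAT box on the opposite strand, which begins 84 bases before the start. That before ID2 holds 3 CCAAT boxes, beginning 78, 122 and 172 bases before the start, and that before ID3 holds 1 SMAD box, beginning 147 bases before it. The windows are 45.3% to 48.2% identical to each other in pairwise global alignment and have a GC content of 66.0% (ID1), 69.2% (ID2) and 62.0% (ID3). Of 35116 promoter windows of this length in the RefSeq table, 38.0% hold a SMAD box, 16.4% the GC-rich SMAD1/5 motif, 1.97% the FOXH1 core and 32.0% a CCAAT box. Among the other genes, NODAL has a SMAD box 237 bases before its listed start, which lies inside the gene span given above. The windows of the 3 starts listed for BMP4 hold 2 SMAD boxes and 1 GC-rich motif in all, those of GDF3 and TDGF1 only CCAAT boxes. LEFTY1, LEFTY2 and BMP2 had no entry in that table. These matches are letters in a window and no binding was measured. Sequence outside the windows was not searched, so a window without a motif does not show that the gene lacks one.

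All 10 genes differed between the groups. The 5 genes of the NODAL branch, NODAL, GDF3, TDGF1, LEFTY1 and LEFTY2, were lower in DJL1, BMP2 and BMP4 were higher, and the ID genes split, with ID1 lower and ID2 and ID3 higher. By the quasi-likelihood test of edgeR, with p adjusted over all tested genes after Benjamini and Hochberg and a threshold of 0.05, 6 were lower and 4 higher, and for all 10 no DJL1 library overlapped a CTRL library. Such calls were common in this comparison: 52.0% of all tested genes were called, 27.0% higher and 25.1% lower, and the groups did not overlap for 53.6%. A change of at least 1.5-fold was found for 6 of the 10 (LEFTY2, GDF3, TDGF1, BMP2, ID2 and ID3) and for 23.1% of all tested genes. Without DJL1 replicate 2 this count was 3 (LEFTY2, BMP2 and ID3), beside 21.4% of all tested genes. Among genes whose mean was 64 CPM or more (CPM are counts in each 1000000 of a library, scaled by TMM factors), where NODAL, TDGF1, LEFTY1, LEFTY2 and ID1 lie, 74.9% were called, 52.1% lower and 22.8% higher. Of the genes from 4 to under 64 CPM, where GDF3, BMP2, BMP4, ID2 and ID3 lie, 30.4% were higher and 35.1% lower, and under 4 CPM, where none of the 10 lies, 34.0% were called. Since most genes at these levels were called, the count of members says little by itself, and the size of each change is given below.

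Depth and spread also separated the groups. Total counts ran from 62277489 to 76691997 in CTRL and from 34634882 to 37795742 in DJL1, and the coefficient of variation between libraries that edgeR estimates was 3.45% in CTRL and 13.8% in DJL1. No batch is named, so library preparation and the transfection cannot be told apart. Pluripotent markers, the defining genes of this line, summed to between 8458 and 8637 CPM in CTRL and between 7509 and 8222 CPM in DJL1. Of these, 6 of 8 were lower and none higher, beside 52.1% lower of all genes at 64 CPM or more. Most of the sum was POU5F1, which was not called (5324 ± 73.1 to 5354 ± 269 CPM). The lower ones included DPPA4 (945 to 596 CPM) and PRDM14 (203 to 106 CPM). In bulk RNA, fewer cells of a type and less RNA per cell cannot be told apart.

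**Figure D1:**
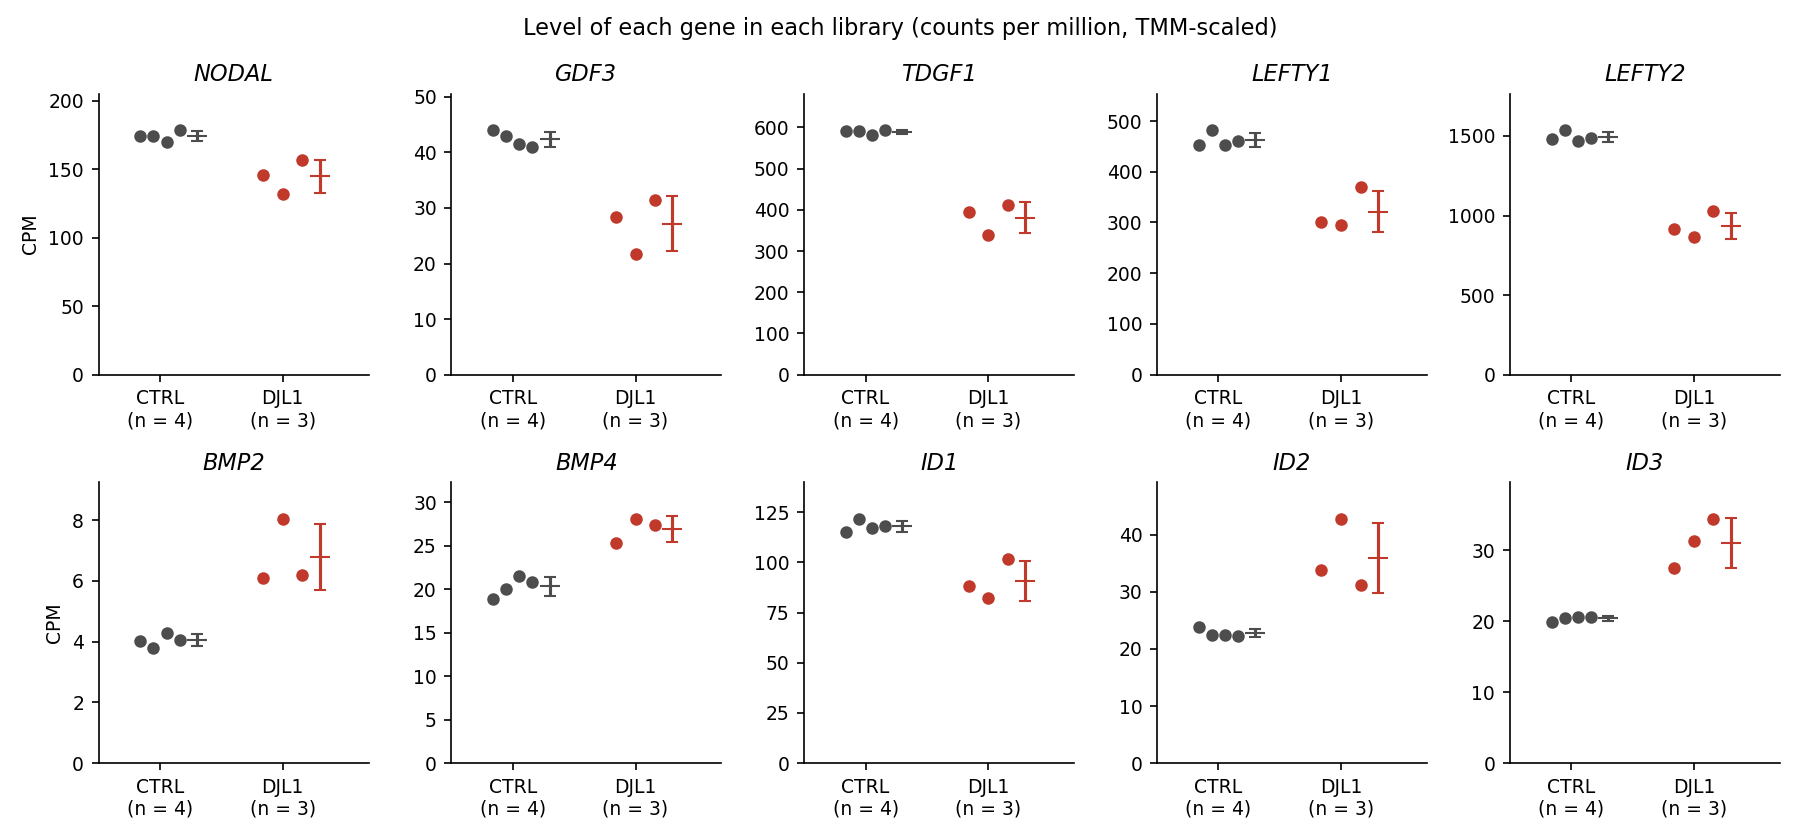
Level of each of the 10 genes in each library, in CPM scaled by TMM factors, on linear axes that start at 0. Each point is 1 library, the bars beside the points are the mean and SD of 4 CTRL (grey) and 3 DJL1 (red) libraries, and in no panel do the groups overlap.

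NODAL itself showed the smallest change of the 10. It stood at 175, 175, 169.8 and 179 CPM in CTRL replicates 1 to 4 and at 146, 132 and 156 CPM in DJL1 replicates 1 to 3. The highest DJL1 library differed by -7.86% from the lowest CTRL library, so the groups were close without overlapping. The mean went from 174 ± 3.6 CPM (SD, n = 4) to 145 ± 12.1 CPM (SD, n = 3), a log2 fold change of -0.27 ± 0.05 (SE, edgeR, adjusted p = 0.00030). Against a median log2 fold change of -0.12 over the genes at 64 CPM or more this change lay at percentile 28.7 of those genes. GDF3, a ligand gene of the same branch that is typical of pluripotent cells, fell further. Its levels were 44.0, 42.9, 41.5 and 41.0 CPM in CTRL and 28.4, 21.7 and 31.4 CPM in DJL1. All DJL1 libraries were lower, with replicate 2 the lowest, and the log2 fold change was -0.64 ± 0.09 (SE, edgeR, adjusted p = 1.8e-05), at percentile 4.25 of genes from 4 to under 64 CPM.

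TDGF1, the coreceptor gene, was among the most abundant transcripts of the cells. CTRL libraries held 590.2, 591, 582 and 593 CPM, a very narrow range, and DJL1 libraries 395, 338 and 411 CPM. Its mean decreased by 35.3%, from 589 ± 4.82 CPM (SD, n = 4) to 381 ± 38.0 CPM (SD, n = 3), or a log2 fold change of -0.63 ± 0.05 (SE, edgeR, adjusted p = 1.3e-07). The row of its retrocopy TDGF1P3 moved with it, from 123 ± 3.26 to 81.1 ± 16.3 CPM (log2 fold change -0.60 ± 0.11). Of all stretches of 100 bases in TDGF1 transcripts (GENCODE release 29), 15.3% also occur in TDGF1P3, so reads may be split between these rows. The reverse share was not computed, and how far either value is affected is not known. LRRC2 overlaps TDGF1 on the opposite strand and had 6.82 CPM in CTRL against 5.44 CPM in DJL1, far below TDGF1. The strand setting of the counting is unknown, so reads of both cannot be told apart where they overlap.

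The inhibitors of NODAL fell more than NODAL. LEFTY2 was the most abundant of the 10 genes, with 1479, 1536, 1467 and 1489 CPM in CTRL and 915, 867 and 1025 CPM in DJL1. The highest DJL1 library differed by -30.1% from the lowest CTRL library. From 1493 ± 30.2 CPM (SD, n = 4) to 936 ± 81.2 CPM (SD, n = 3), the log2 fold change was -0.67 ± 0.05 (SE, edgeR, adjusted p = 3.1e-08), at percentile 2.17 of genes at 64 CPM or more. LEFTY1 stood at 452, 482, 453 and 460.1 CPM in CTRL and at 301, 295 and 369 CPM in DJL1, with replicate 3 nearest to CTRL. Its log2 fold change was -0.52 ± 0.06 (SE, edgeR, adjusted p = 4.7e-06). LEFTY1 and LEFTY2 are close copies and share 14.8% and 11.1% of their stretches of 100 bases with each other, so their separate values depend on how shared reads were counted. With the counts of both summed to 1 row the log2 fold change was -0.64 (edgeR, adjusted p = 9.8e-08).

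Ratios between genes within a library do not depend on how libraries are scaled. Per kb of exon, the LEFTY genes together had 8.80, 9.22, 9.01 and 8.69 times the counts of NODAL in CTRL and 6.68, 7.05 and 7.17 times in DJL1. The ratio thus shifted from 8.93 ± 0.23 (SD, n = 4) to 6.97 ± 0.26 (SD, n = 3), and the groups did not overlap. TDGF1 over NODAL was 2.16 to 2.23 in CTRL and 1.66 to 1.76 in DJL1, and GDF3 over NODAL went from 0.326 ± 0.013 to 0.251 ± 0.026, again without overlap. The LEFTY genes, TDGF1 and GDF3 were thus all lower relative to NODAL in every DJL1 library. Between the LEFTY genes the split moved little, though without overlap, with LEFTY1 at 30.1% to 30.7% of their sum in CTRL and 31.7% to 33.7% in DJL1. No test is given for these ratios, which were formed from genes already seen to differ.

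The BMP ligand genes moved the other way from a much lower level. BMP4 was at 18.9, 20.0, 21.5 and 20.9 CPM in CTRL and at 25.3, 28.1 and 27.4 CPM in DJL1. All 3 DJL1 libraries were above CTRL and lay close together. The mean rose from 20.3 ± 1.14 CPM (SD, n = 4) to 26.9 ± 1.44 CPM (SD, n = 3), a log2 fold change of 0.41 ± 0.06 (SE, edgeR, adjusted p = 6.8e-05). BMP2, the weakest of the 10 genes, was at 4.03, 3.80, 4.29 and 4.04 CPM in CTRL and at 6.11, 8.04 and 6.20 CPM in DJL1. DJL1 replicate 2 stood above the other DJL1 libraries. The rise was 67.8%, with a log2 fold change of 0.75 ± 0.12 (SE, edgeR, adjusted p = 0.00011), the largest in size of the 10 with all libraries (LEFTY2 was larger without DJL1 replicate 2) and at percentile 91.2 of genes from 4 to under 64 CPM. Relative to NODAL per kb, BMP4 went from 0.0923 ± 0.0061 (SD, n = 4) to 0.148 ± 0.018 (SD, n = 3), which still left NODAL the more abundant transcript in every library.

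The ID genes, which BMP signalling induces in many cell types, did not move together. ID1, by far the most abundant of the 3, had 115, 122, 117 and 118 CPM in CTRL and 88.3, 82.1 and 102 CPM in DJL1. All DJL1 libraries were lower, and the highest differed by -11.6% from the lowest CTRL library. It fell from 118 ± 2.82 CPM (SD, n = 4) to 90.7 ± 10.1 CPM (SD, n = 3), a log2 fold change of -0.38 ± 0.06 (SE, edgeR, adjusted p = 5.3e-05). ID2 had 23.9, 22.4, 22.5 and 22.3 CPM in CTRL and 33.9, 42.8 and 31.1 CPM in DJL1. It was higher in all 3 DJL1 libraries, most in replicate 2, with a log2 fold change of 0.66 ± 0.08 (SE, edgeR, adjusted p = 8.5e-06). ID3 had 19.8, 20.5, 20.6 and 20.6 CPM in CTRL and 27.5, 31.3 and 34.4 CPM in DJL1. The CTRL libraries of ID3 were nearly equal and all DJL1 libraries were above them, with a log2 fold change of 0.61 ± 0.07 (SE, edgeR, adjusted p = 2.7e-06). The antisense gene ID2-AS1, which overlaps ID2, had 0.19 CPM in CTRL against 0.08 CPM in DJL1, and the copy ID2B had 0.70 against 0.97 CPM, both far below ID2.

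The make-up of the ID pool thus changed, while its sum did not separate the groups. Per kb of exon, ID1 made up 77.6%, 78.7%, 77.8% and 78.1% of ID1, ID2 and ID3 together in CTRL and 65.5%, 59.7% and 66.2% in DJL1. The share of ID2 went from 8.68 ± 0.41% (SD, n = 4) to 14.7 ± 3.13% (SD, n = 3) and that of ID3 from 13.3 ± 0.23% to 21.5 ± 1.27%. The sum of ID1, ID2 and ID3 ran from 120.4 to 126 CPM per kb in CTRL and was 109, 112 and 125 CPM per kb in DJL1 replicates 1 to 3. Here the groups overlapped, through DJL1 replicate 3 alone. ID4, the remaining gene of the family, was at 13.7 to 15.9 CPM in CTRL and 28.4 to 29.4 CPM in DJL1, and rose by 0.96 ± 0.06 on the log2 scale (SE, edgeR, adjusted p = 8.9e-09).

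**Figure D2:**
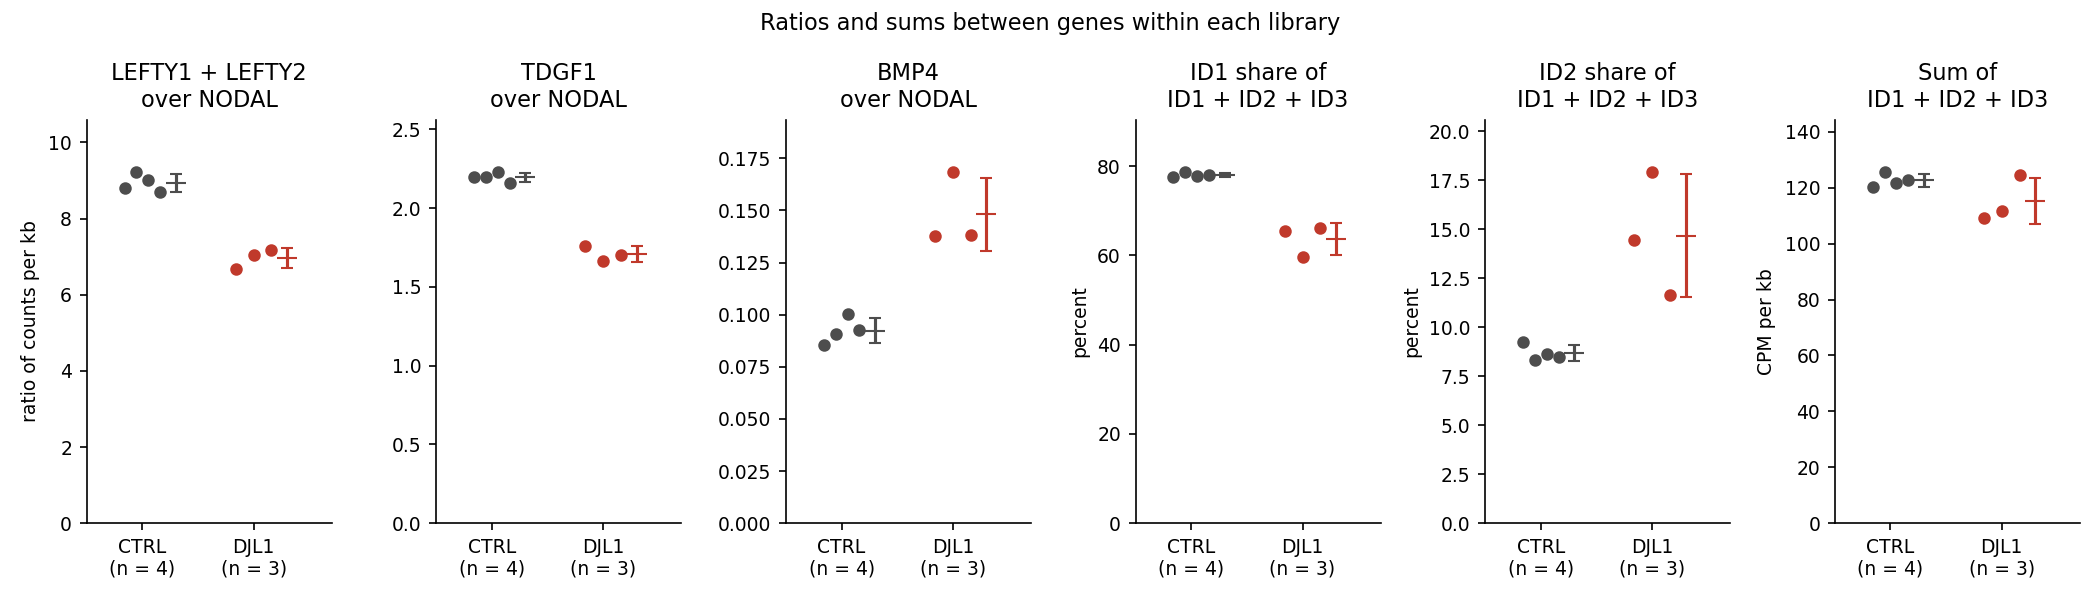
Ratios, shares and a sum of counts per kb of exon within each library, for 4 CTRL (grey) and 3 DJL1 (red) libraries, with the mean and SD beside the points and axes from 0. The groups are apart in the ratios and shares, whereas the sum of ID1, ID2 and ID3 overlaps through DJL1 replicate 3 alone (120.4 to 126 against 109 to 125 CPM per kb).

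Ordered by level per kb of exon, the genes in CTRL ran LEFTY2 (651 ± 13.2 CPM per kb, SD, n = 4), LEFTY1 (284 ± 8.53), TDGF1 (229.9 ± 1.88), NODAL (105 ± 2.16), ID1 (95.7 ± 2.28), GDF3 (34.2 ± 1.11), ID3 (16.3 ± 0.29), ID2 (10.6 ± 0.34), BMP4 (9.67 ± 0.54) and BMP2 (1.12 ± 0.06). No neighbours in this order overlapped between CTRL libraries, though ID2 and BMP4 were close. In DJL1 the top 5 kept their order and ID3 (24.8 ± 2.80 CPM per kb, SD, n = 3) stood above GDF3 (21.9 ± 4.0). There NODAL overlapped ID1, and GDF3 overlapped both ID3 and ID2. LEFTY2 was still the highest in DJL1 at 408 ± 35.4 CPM per kb and BMP2 the lowest at 1.88 ± 0.30.

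Within DJL1, 1 library stood out for these genes. Replicate 2 was the lowest DJL1 library for all 6 genes that fell and the highest for 3 of the 4 that rose, the exception being ID3. Replicate 3 was the highest for all 6 that fell, and so the nearest to CTRL. Without DJL1 replicate 2 the same 10 genes were called in the same directions, with log2 fold changes of -0.22 for NODAL, -0.51 for GDF3, 0.60 for BMP2 and 0.50 for ID2. The authors' deposited table of this comparison gives log2 fold changes within 0.016 of those above for all 10 genes, from -0.66 (LEFTY2) to 0.75 (BMP2).

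**Figure D3:**
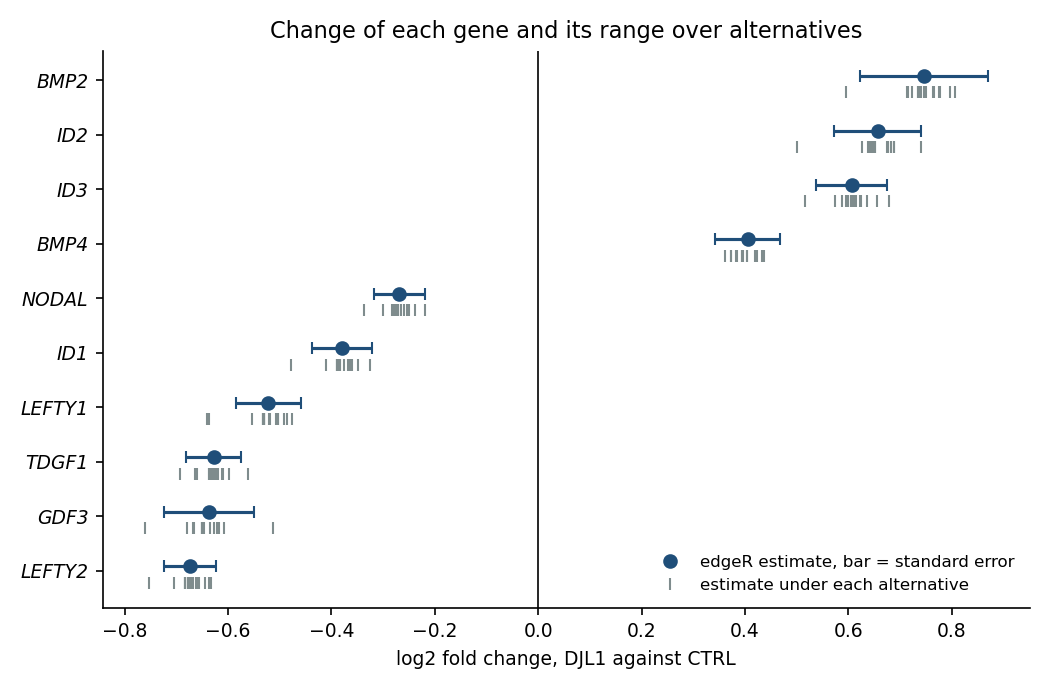
Log2 fold change of each gene in DJL1 against CTRL by edgeR (dots, bars are the standard error) and its value under each alternative setting (grey ticks). Every tick is on the same side of 0 as its dot, from -0.67 for LEFTY2 to 0.75 for BMP2.

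The other genes of these pathways were described with 10 lists, which hold 100 further genes, of which 92 were tested. Of these 92, 55 were higher and 14 lower (59.8% and 15.2%), beside 27.0% and 25.1% of all tested genes, and their median log2 fold change was 0.37 beside 0.01. The balance differed by level. Of the 37 pathway genes under 4 CPM, 29 were higher and 1 lower, where 25.4% and 8.63% of all tested genes at that level were. Of the 41 from 4 to under 64 CPM, 21 were higher and 8 lower (51.2% and 19.5%), beside 30.4% and 35.1% of all genes there. Of the 14 at 64 CPM or more, 5 were higher and 5 lower (35.7% each), beside 22.8% and 52.1%.

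Genes for other ligands were mostly higher, beside 27.0% of all tested genes higher and 25.1% lower. Of 9 further tested Nodal, activin and TGF-beta ligand genes 7 were higher and 1 lower. INHBB, which encodes an activin subunit, rose from 1.13 ± 0.47 CPM (SD, n = 4) to 7.60 ± 0.88 CPM (SD, n = 3), a log2 fold change of 2.75 ± 0.22. INHBE, another inhibin subunit gene, rose by 0.82 and TGFB1 by 0.46 on the log2 scale. Among 9 further tested genes of the BMP ligand list 7 were higher and none was lower by edgeR. The 7 include BMP1 (21.2 to 24.7 CPM, log2 fold change 0.22), which encodes a protease and not a ligand. GDF7 (0.72 to 3.64 CPM), BMP6 (0.83 to 2.45 CPM) and GDF6 (0.68 to 1.86 CPM) were also among them, all 3 weakly expressed in CTRL.

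Receptor genes went both ways, beside 27.0% of all tested genes higher and 25.1% lower. From 4 to under 64 CPM, where most of these receptor genes lie, the shares were 30.4% and 35.1%. In the list of Nodal and activin receptors, coreceptors and convertases, 2 of 10 genes besides TDGF1 were higher and 4 lower. That list also holds TGF-beta receptor genes, with TGFBR1 and TGFBR2 among the lower and TGFBR3 among the higher. The type II receptor genes for activin and NODAL moved apart. ACVR2B fell from 77.8 ± 1.09 to 56.1 ± 5.63 CPM (log2 fold change -0.47 ± 0.06), whereas ACVR2A rose from 11.0 ± 0.27 to 14.6 ± 0.34 CPM (0.41 ± 0.07). ACVR1B, a type I receptor gene for activin and NODAL, fell from 32.6 ± 1.17 to 26.7 ± 0.60 CPM (-0.29 ± 0.05). TGFBR1, a type I receptor gene for TGF-beta, had a log2 fold change of -0.28. Of 9 BMP receptor and coreceptor genes 5 were higher and 2 lower. BMPR1A, a type I receptor gene, fell from 115 ± 1.75 to 83.8 ± 11.3 CPM (-0.46 ± 0.07). ACVR1, a type I receptor gene for BMPs, was higher at 36.2 ± 1.43 CPM against 26.4 ± 1.28 CPM, and the coreceptor genes RGMB and HJV rose by 0.38 and 1.72 on the log2 scale.

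Apart from the LEFTY genes, feedback inhibitor and secreted antagonist genes were higher where they were called, beside 27.0% of all tested genes higher and 25.1% lower. Of 5 further genes among the Nodal feedback and secreted inhibitors 4 were higher, in contrast to the LEFTY genes. For CER1, among these 4, the groups overlapped (32.0 ± 1.08 to 35.4 ± 2.13 CPM). FST, which encodes the activin-binding protein follistatin, reached 59.9 ± 3.26 CPM against 41.2 ± 0.36 CPM in CTRL (log2 fold change 0.54 ± 0.05), the related FSTL1 rose by 0.20 and PMEPA1, a feedback inhibitor gene of SMAD2 and SMAD3, by 0.18. Of 11 BMP antagonist genes 5 were higher and none was lower by edgeR. GREM1 rose from 3.66 ± 0.43 to 15.9 ± 2.88 CPM (2.12 ± 0.13), BMPER by 2.87 and NOG, which encodes noggin, by 1.68. The other 6, among them the chordin gene CHRD (4.81 CPM in CTRL, 5.69 CPM in DJL1), were not called.

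Inside the cell, 7 of 16 genes for SMADs and their inhibitors were higher and 6 lower, beside 27.0% and 25.1% of all tested genes. At 64 CPM or more these shares were 22.8% and 52.1%. BAMBI, a decoy receptor gene that BMP signalling induces, reached 48.2 ± 4.24 CPM against 23.0 ± 0.61 CPM in CTRL (log2 fold change 1.07 ± 0.06), and SMURF2, a ubiquitin ligase gene, rose by 0.52. SKIL, a corepressor gene of SMAD2 and SMAD3, fell from 269 ± 4.78 to 196 ± 12.4 CPM (-0.45 ± 0.04). Of 14 further BMP target genes 12 were higher and 2 lower. The lower ones were SMAD6 (11.6 ± 0.91 to 7.32 ± 0.44 CPM, log2 fold change -0.67 ± 0.09) and SMAD7 (77.2 to 71.3 CPM, -0.12), both also in the SMAD list. The homeobox gene MSX2 was at 4.85 to 5.25 CPM in CTRL and 15.7 to 22.9 CPM in DJL1, and GATA3, a trophectoderm factor gene, at 1.30 to 1.79 and 8.02 to 9.55 CPM. Of 9 further Nodal target genes 7 were higher and 1 lower, whereas NODAL and the LEFTY genes, in the same list, were all lower. The lower one of the 9 was FOXH1 (57.6 ± 1.33 to 42.9 ± 4.43 CPM, log2 fold change -0.42 ± 0.06), the most abundant of them. The mesendoderm genes EOMES (0.65 to 3.50 CPM), SOX17 (0.65 to 3.79 CPM) and TBXT (0.66 to 2.55 CPM) rose from a low level. Of the E protein genes, TCF3 stood at 259 ± 8.42 CPM (SD, n = 4) and 246 ± 13.0 CPM (SD, n = 3) and TCF4 at 48.2 ± 1.34 and 45.5 ± 2.13 CPM, and neither was called (edgeR, adjusted p = 0.16 and 0.17).

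**Figure D4:**
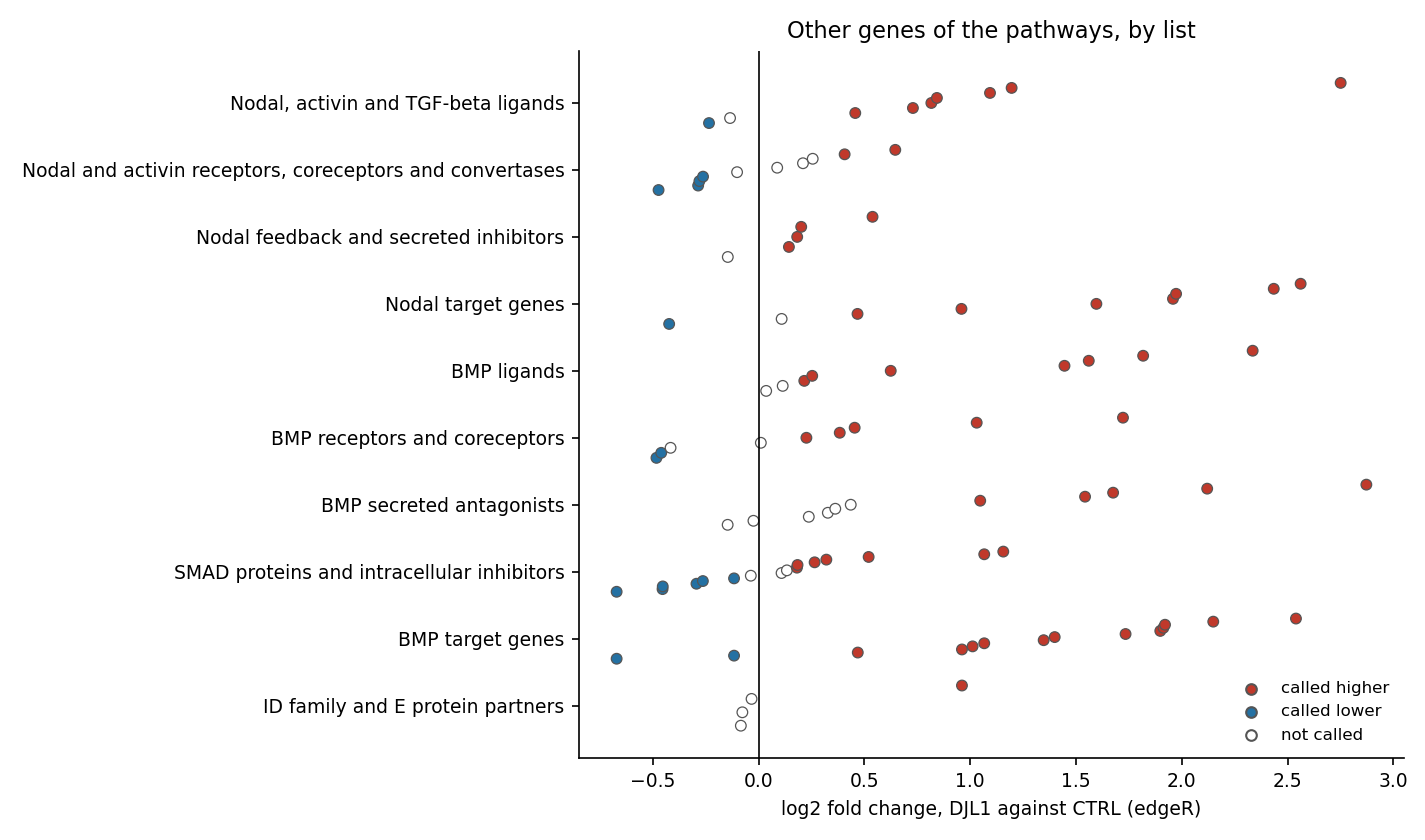
Log2 fold change in DJL1 against CTRL of each tested pathway gene outside the 10 members, by list, with called genes filled red (higher) or blue (lower) and others open. A gene in 2 lists is drawn in both, and BMP target genes are mostly on the right (12 of 14 higher, 2 lower).

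Markers of other cell types were also mostly higher, beside 27.0% of all tested genes higher and 25.1% lower. Of 9 tested trophectoderm markers 7 were higher and 1 lower, with a summed level of 67.3 to 70.9 CPM in CTRL and 91.0 to 103 CPM in DJL1. Most of the sum in CTRL was TFAP2C (51.5 to 50.6 CPM), which was not called, and the lower marker was CGB3 (4.11 to 3.09 CPM). Some markers are in the pathway lists above as well, so they are not a separate result. They are GATA2 (4.88 to 18.2 CPM), GATA3, TFAP2A and HAND1 for trophectoderm and BAMBI for amnion. SOX17 and FOXA2 for endoderm, and EOMES, TBXT, MIXL1 and HAND1 for streak and mesoderm, are shared too. Amnion markers (5 of 6 higher) summed to 35.6 to 37.4 and 71.5 to 79.9 CPM. This rise was mostly that of BAMBI (23.0 to 48.2 CPM) and IGFBP3 (11.3 to 23.1 CPM). GABRP was not called, and TFAP2B (0.07 to 0.49 CPM) had too few counts in CTRL to pass the filter there. Endoderm markers (5 of 8 higher) summed to 97.5 to 103 and 112 to 122 CPM, and streak and mesoderm markers (4 of 7 higher, 1 lower) to 49.2 to 51.6 and 55.5 to 60.3 CPM. Most of the endoderm sum was COL4A1 (60.1 to 65.4 CPM) and PDGFRA (33.3 to 32.1 CPM), neither called. Most of the streak and mesoderm sum was KDR (35.8 to 32.3 CPM), which was lower. Neural markers (7 of 8 higher) summed to 619 to 633 and 664 to 726 CPM. Nearly all of this was NES (604 ± 7.35 to 659 ± 33.6 CPM, log2 fold change 0.13). The other neural markers that were called were far weaker, such as PAX6 (2.25 to 8.47 CPM). Fibroblast and feeder markers (8 of 9 higher) summed to 675 to 701 and 1075 to 1182 CPM. Among them the collagen gene COL1A1 rose from 241 ± 5.41 to 484 ± 49.8 CPM and FN1 from 186 ± 4.84 to 292 ± 6.18 CPM, whereas DCN and LUM were too low to be tested, with means of 0.01 and 0.02 CPM in CTRL against 0.06 and 0.12 CPM in DJL1. Naive markers (6 of 8 higher, 2 lower) summed to 357 to 361 and 405 to 469 CPM. No marker was at 0 in a whole group. The part of such cells in the changes of the BMP and ID genes was not tested.

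For 3 of the genes the most similar profiles over the 7 libraries were sought among the 11990 genes of 5 CPM or more on average, as the Euclidean distance between log2 CPM values taken relative to the CTRL mean. Nearest to NODAL were DNAJA2, IDE and CACHD1 (distances 0.054 to 0.062), with log2 fold changes of -0.26 to -0.28. MRPL12, CUL7 and RGP1 were nearest to ID1 (0.047 to 0.054). Those nearest to BMP4 were ZNF367, RGMB and QPCT (0.088 to 0.095), with log2 fold changes of 0.37 to 0.38, and RGMB is also in the list of BMP coreceptors above.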

How the data were processed

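The authors deposited raw counts per gene symbol, with 1 column for each of the 7 libraries per the file headers, and these were tested here. From the authors' deposited results of their own comparison, the log2 fold changes were set beside those computed here, and their adjusted p-values, so named per the file headers, were not printed. A deposited table of log values was not used. Upstream, the submitters' processing notes list Trim Galore 0.4.0, HISAT2 2.2.1, the builds GRCh38 and hg38, and Subread 1.5.0, which includes featureCounts. No strand setting or rule for reads with several matches is named.

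Groups were read from the sample titles. The 26062 tested genes are those that edgeR's filterByExpr kept at a minimum count of 10 and a minimum total of 15, and they hold 99.9% of the counts. After TMM scaling they were tested with edgeR's robust quasi-likelihood test, 2-sided, and p was adjusted by Benjamini-Hochberg over all of them. The F statistic gave each standard error. Log2 CPM used a prior count of 2. Exon lengths are unions of the exons in GENCODE release 29 (basic set). Tools were Python 3.11.15 and R 4.3.3 with DESeq2 1.42.0, edgeR 4.0.16 and limma 3.58.1. The fit was tested on simulated data.

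The members and lists were chosen with earlier results of these data known. The text names the 10 members, the 3 genes with the smallest adjusted p of each of 10 pathway lists, copies of members, and the 3 nearest profiles of NODAL, BMP4 and ID1. BMPR1A, CHRD, LRRC2, SMAD6, SMAD7, COL1A1, FN1, DCN, LUM and the other cell type markers named singly were named after their values were seen. The same holds for ACVR1B, BMP1, CER1, FOXH1, TGFBR2 and TGFBR3. Alternatives were DESeq2, limma-voom with and without a variance for each group, other scalings and filters, thinned counts, each library left out, a replicate block and summed LEFTY counts.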

Additional observations from a re-analysis of the deposited data

Results flagged for a closer look

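ID2 in the CTRL group was singled out because 1 library lay apart from the other 3. CTRL replicate 1 was at 23.9 CPM and the others at 22.3 to 22.5 CPM, so that the gap took up 0.880 of the range, above Dixon's 95% critical value for 4 samples. Chance picks out about 1 in 20 such groups. All DJL1 libraries (31.1 to 42.8 CPM) were above it, and without CTRL replicate 1 the log2 fold change of ID2 was 0.68.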

How the results depend on the processing

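Under 17 alternative settings each, all 10 genes kept their direction and stayed below an adjusted p of 0.05, the summed LEFTY counts included. The count of members was 4 higher and 6 lower in every setting. The count of members changed at least 1.5-fold, recomputed over the same settings after the data were seen, was 6 except for 5 with no filter and 3 to 6 with 1 library left out, the 3 being without DJL1 replicate 2. Log2 fold changes ran from -0.34 to -0.22 for NODAL, -0.75 to -0.63 for LEFTY2, -0.48 to -0.33 for ID1, 0.36 to 0.44 for BMP4 and 0.50 to 0.74 for ID2, and the largest adjusted p over these settings was 0.0021 (NODAL without CTRL replicate 4). Pathway genes outside the members numbered 51 to 57 higher and 11 to 18 lower, and all genes called 11477 to 14272. The median over all tested genes moved by less than 0.1 (log2) in every setting, from -0.03 with no filter to 0.03 with upper quartile scaling. Same-numbered libraries did not deviate together (r of -0.039 to -0.0089 across genes), so the numbers were not taken to pair them. With the replicate number as a block 11477 genes were called in place of 13559, the members stayed at 4 and 6, and none of the 3 DJL1 libraries correlated best with its own number. Values at about 1 CPM or less, such as those of EOMES or BMPER in CTRL, rest on few counts.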
